A study of Mus musculus with 16 samples.

Results

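*Srf* and its cofactor genes *Mrtfa*, *Mrtfb*, *Myocd*, *Mamstr*, *Elk1*, *Elk3* and *Elk4* were followed across the facial prominences of mouse embryos. These 8 genes were chosen by name, as SRF and the members of its myocardin-related (MRTF) and ternary complex factor (TCF) cofactor families, out of 35639 genes with a TPM and 15451 genes with a gene value. RNA from the frontonasal prominence (FNP, the medial and lateral nasal processes) and the mandible of 8 embryos at E11.5 was sequenced, so that each embryo gave 1 library of each tissue. Mutants were embryos 3, 4, 5 and 6, all *Srf* flox/flox; *Wnt1-Cre*. Controls were embryos 1 and 7, *Srf* flox/+; *Wnt1-Cre*, embryo 2, *Srf* flox/flox without Cre, and embryo 8, *Srf* flox/+ without Cre. Every embryo therefore carried at least 1 floxed *Srf* allele, and no wild-type embryo was among the controls. The deposited design table puts embryos 1 to 5 in its first litter and embryos 6 to 8 in its second. All lines were kept on the same inbred background. *Wnt1-Cre* acts in neural crest and its descendants, whereas whole prominences were sequenced, so epithelium, endothelium, blood and other cells in which *Wnt1-Cre* is not active contributed RNA to every library. In such samples fewer cells of a type and less RNA per cell cannot be told apart.

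SRF is a MADS-box transcription factor that binds the CArG box, an A/T-rich DNA element, and it acts with cofactors of either family. MRTF-A and MRTF-B, encoded by *Mrtfa* and *Mrtfb*, bind monomeric actin through their RPEL motifs and reach the nucleus when actin is assembled into filaments, where they activate cytoskeletal genes. Myocardin, encoded by *Myocd*, is the founding member of that family and is known for its role in smooth and cardiac muscle. *Mamstr* encodes MASTR, a related coactivator that works with MEF2 in skeletal muscle. The paper states that binding of MASTR to SRF is not known, so *Mamstr* is counted among the cofactors here only as a member of the MRTF family. The TCFs ELK1, ELK3 and ELK4 are ETS-domain proteins that contact an ETS site beside a CArG box and are phosphorylated by ERK, which links growth factor signaling to immediate early genes. ELK3, also called Net, can act as a repressor, and ELK4 is also called SAP-1.

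In GRCm38, *Srf* lies on chromosome 17 from 46548329 to 46556175 on the minus strand, within a noncoding gene annotated on the other strand. *Mrtfa* lies on chromosome 15 from 81012281 to 81190757 and *Mrtfb* on chromosome 16 from 13256481 to 13417529. *Elk4* lies on chromosome 1 from 132007607 to 132032612, *Elk3* on chromosome 10 from 93247414 to 93311135 and *Elk1* on chromosome X from 20933395 to 20950608. *Mamstr* lies on chromosome 7 from 45639977 to 45646521, and *Myocd* lies on chromosome 11 from 65176561 to 65269989. *Elk1* overlaps *Uxt* on the same strand, *Elk4* overlaps *Mfsd4a* on the other strand, and *Elk3* overlaps *Cdk17* on the other strand, so the division of reads between these neighbors is uncertain.

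The 250 bases before the annotated start are shown for *Srf*, the gene that was deleted and the member with the largest genotype difference, and for *Elk4* and *Mrtfb*, of which *Elk4* differed between litters and *Mrtfb* lay next to the genotype threshold. Capitals mark CArG boxes and the ETS letters CCGGAA, or TTCCGG where the site is on the other strand. The sequences are those of RefSeq on GRCm38.p6, 5′ to 3′ along each gene, from chr17:46556163-46556412 (minus strand), chr1:132007370-132007619 (plus strand) and chr16:13256231-13256480 (plus strand).
Srf: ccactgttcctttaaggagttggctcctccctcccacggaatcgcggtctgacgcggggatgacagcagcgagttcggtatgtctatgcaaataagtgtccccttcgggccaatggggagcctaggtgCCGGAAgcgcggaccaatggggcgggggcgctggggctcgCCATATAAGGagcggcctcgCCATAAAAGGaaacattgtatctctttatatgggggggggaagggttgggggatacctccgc
Elk4: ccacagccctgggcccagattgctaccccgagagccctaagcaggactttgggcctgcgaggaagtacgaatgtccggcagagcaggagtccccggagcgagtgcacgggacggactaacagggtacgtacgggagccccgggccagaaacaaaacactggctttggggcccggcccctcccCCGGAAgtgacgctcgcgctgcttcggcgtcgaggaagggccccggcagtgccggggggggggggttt
Mrtfb: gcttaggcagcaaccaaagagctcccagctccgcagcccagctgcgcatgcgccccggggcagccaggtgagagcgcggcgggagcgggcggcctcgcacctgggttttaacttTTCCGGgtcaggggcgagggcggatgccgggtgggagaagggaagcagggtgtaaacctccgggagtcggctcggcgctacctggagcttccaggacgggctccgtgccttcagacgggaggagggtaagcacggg
RefSeq gave 12 start sites for 7 of the 8 genes, and the first listed of 3 is shown for *Elk4* and for *Mrtfb*. The *Srf* window held 2 CArG boxes, which begin 82 and 62 bases before the start, and 1 ETS match that begins 122 bases before it, with no overlap among them. None of the other 11 windows held a CArG box. The box was found in 1.47% of all 32851 promoter windows of this length, and 2 or more were found in 6 of them. The ETS letters were found in 12% of all windows on either strand, and in 4 of the 12 windows here, which belong to *Srf*, *Elk4* and *Mrtfb*. Not every window of *Elk4* or *Mrtfb* held a match, and the matching windows of *Mrtfb* overlap and share the same site. The 3 genes shown are the ones with a match. The CArG pattern reads the same on both strands, and a match of letters is not a measure of binding.

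*Elk3* was the most abundant cofactor transcript, and the muscle-associated coactivator genes *Mamstr* and *Myocd* were the lowest members. In the 8 control libraries *Elk3* had a mean of 63.1 TPM ± 6.15 (SD), with *Srf* next at 52.5 TPM ± 14.2, and *Elk3* exceeded *Srf* in 7 of 8 libraries. *Mrtfa* followed at 20.0 TPM ± 1.76 and exceeded *Mrtfb*, at 17.2 TPM ± 1.5, in 6 of 8 libraries. *Mrtfb* and *Elk4*, at 16.5 TPM ± 3.19, did not differ beyond their spread, since *Mrtfb* was the higher in 4 of 8 libraries. *Elk1* stood at 12.3 TPM ± 1.04 and was below *Elk4* in 8 of 8 libraries. *Mamstr* had 1.18 TPM ± 0.634 and *Myocd* 0.336 TPM ± 0.189, which placed them above 7.95% and 1.29% of the 14630 genes tested, against 80.4% for *Elk3* by the mean of all 16 libraries. In the 8 mutant libraries the order was *Elk3* (67.1 TPM ± 6.03), *Mrtfa* (19.9 ± 1.68), *Elk4* (16.0 ± 2.23), *Mrtfb* (14.7 ± 1.01), *Elk1* (13.0 ± 1.07) and *Srf* (12.7 ± 1.31). *Elk1* and *Srf* did not differ beyond their spread there, with *Elk1* the higher in 4 of 8 libraries.

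**Figure D1:**
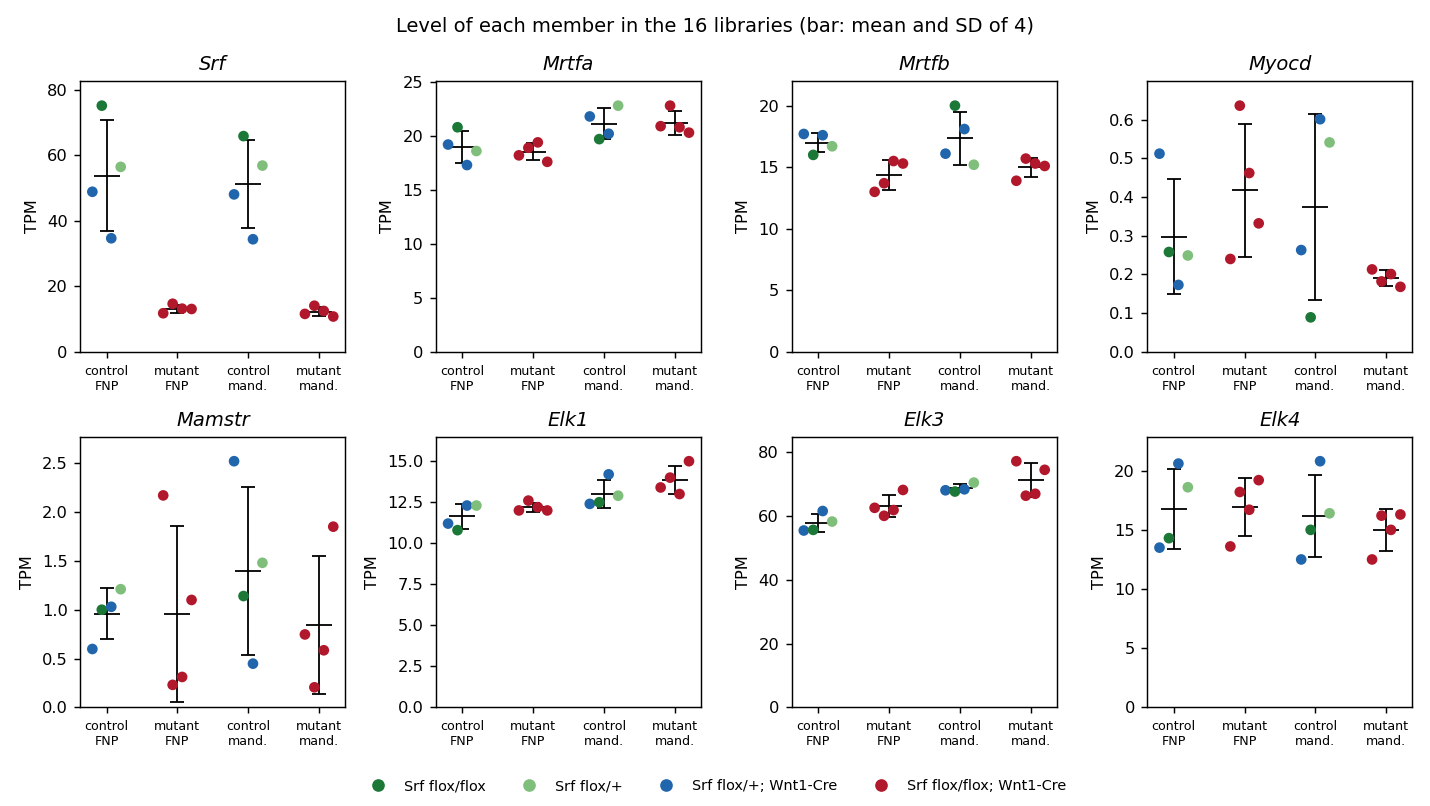
Level in TPM (vertical axis, from 0) of each of the 8 genes in every library, by genotype group and tissue; points are libraries colored by exact genotype, and bars give the mean and SD of 4. The 8 mutant libraries sit between 10.8 and 14.7 TPM for Srf, below all controls, while the other genes overlap between the groups of at least 1 tissue.

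As TPM are corrected for length, members were summed by family. The MRTF family (*Mrtfa*, *Mrtfb*, *Myocd* and *Mamstr*) summed to 33.5 to 40.9 TPM over the 16 libraries and the TCF family (*Elk1*, *Elk3* and *Elk4*) to 80.2 to 106 TPM, so that TCF transcripts outnumbered MRTF transcripts by 2.11 to 2.89 times in every library. *Elk3* made up 65.1 to 74.9% of the TCF sum. *Mrtfa* made up 48.0 to 58.5% of the MRTF sum, and *Myocd* and *Mamstr* together 0.996 to 7.18%. In the FNP the MRTF sum was 0.744 ± 0.227 times the *Srf* level in controls and 2.61 ± 0.237 times in mutants (n = 4 each). In the mandible these ratios were 0.83 ± 0.230 and 3.06 ± 0.298. The TCF sum was 1.75 ± 0.692 times the *Srf* level in control and 7.03 ± 0.646 times in mutant FNPs, and 2.03 ± 0.678 times in control and 8.28 ± 1.32 times in mutant mandibles. These ratios describe whole prominences, and their denominator is the deleted gene.

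Loss of *Srf* was measured first, as a check of the labels. In control FNPs *Srf* stood at 48.9, 75.2, 34.7 and 56.5 TPM in embryos 1, 2, 7 and 8, and in mutant FNPs at 11.8, 14.7, 13.2 and 13.1 TPM in embryos 3 to 6. In control mandibles it stood at 48.1, 65.9, 34.4 and 56.9 TPM, and in mutant mandibles at 11.6, 14.1, 12.5 and 10.8 TPM in the same orders. Every mutant library lay below every control library in both tissues, a separation that was not counted over all genes. With tissue and litter as covariates over 16 libraries, *Srf* was lower in mutants by a log2 difference of -2.06 (SE 0.138, limma adjusted p = 8.48e-08), in a comparison that called 1.33% of 14630 genes. It was also called in the FNP alone (-2.03, adjusted p = 0.00412, 0.106% of genes called) and in the mandible alone (-2.08, adjusted p = 0.00102, 0.1% of genes called). The gene values do not separate the deleted from the remaining sequence of *Srf*, so residual signal from cells without recombination and from truncated transcripts cannot be told apart.

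*Srf* also varied among the controls, and was lower in the control with *Wnt1-Cre* of either litter, in a comparison that did not pass the adjusted threshold. Controls with *Wnt1-Cre* had 65.0% of the *Srf* level of the litter's control without Cre in the FNP of the first litter and 61.5% in that of the second (1 embryo against 1 in each). In the mandible the same pairs gave 73.0% and 60.4%. In the fit of all libraries with controls divided by Cre, the log2 difference was -0.63 (95% interval -0.86 to -0.40), with an unadjusted p of 3.31e-05 and a limma adjusted p of 0.140, which missed the threshold. This comparison called 0.00684% of genes, that is 1 of 14630. It treats the 2 libraries of an embryo as separate, so its interval may be too narrow and its p too small. With the tissues averaged per embryo the SE of *Srf* was 0.146, against 0.110, and the limma adjusted p was 0.9999. *Srf* passed the threshold under none of 15 alternatives (adjusted p 0.0661 to 1). Mutants had 31.6% of the mean *Srf* level of controls with *Wnt1-Cre* in the FNP and 29.7% in the mandible, and 20.1% and 20.0% of that of controls without Cre. The controls with *Wnt1-Cre* each had 1 floxed allele open to deletion, so Cre itself and loss of 1 allele cannot be told apart in this comparison. One of the controls without Cre had both alleles floxed and the other had 1, so allele number and embryo cannot be told apart among them.

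The gene called between controls with and without Cre was *H2az2*, a histone variant gene that was singled out after its values were seen. The *Wnt1-Cre* line used here is named in the methods as an *H2az2* transgene allele, and RefSeq lists the transgene among the synonyms of that gene, which GENCODE calls *H2afv* (chromosome 11 from 6427229 to 6444443 of GRCm38). *H2az2* stood at 141 to 191 TPM in the 12 libraries of embryos with *Wnt1-Cre* and at 325 to 341 TPM in the 4 libraries of embryos without Cre, with no overlap. The share of all genes separated in this way was not counted. The log2 difference among controls was -0.98 (SE 0.0808, limma adjusted p = 3.48e-05). *H2az2* thus followed the Cre labels of all 8 embryos, mutants included. Controls 1 and 7 carried the transgene together with 1 floxed *Srf* allele open to deletion, and for their lower *Srf* these cannot be told apart.

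**Figure D2:**
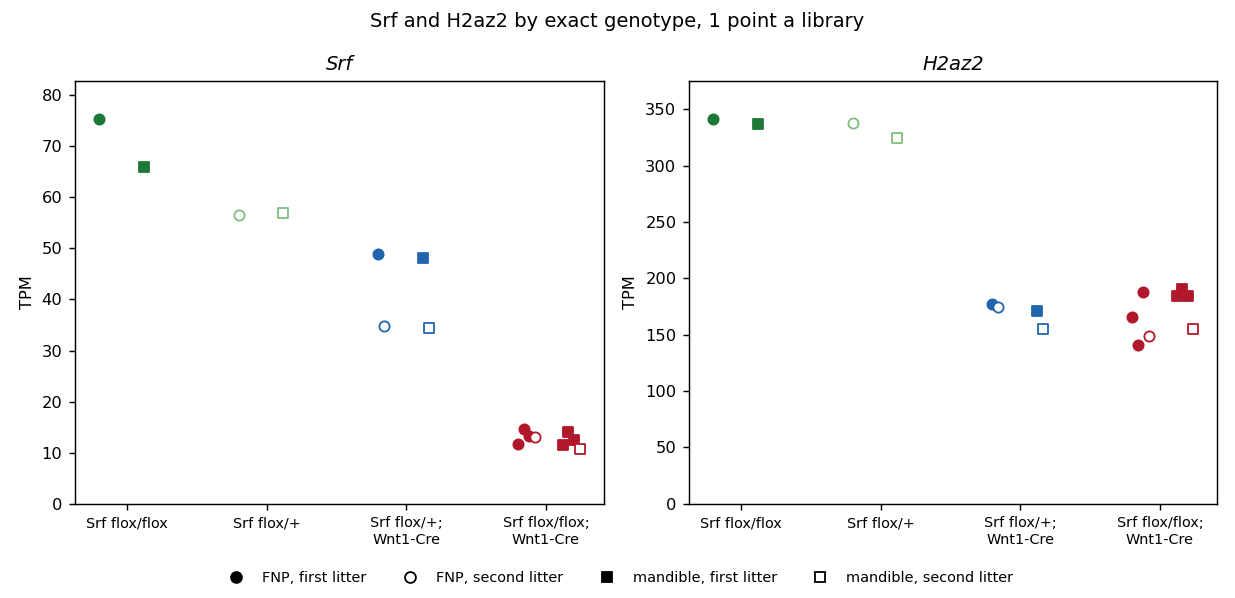
Srf (left) and H2az2 (right) in TPM by exact genotype, 1 point a library; circles are FNP, squares mandible, filled points the first and open points the second litter. Srf runs from 65.9 to 75.2 TPM in Srf flox/flox without Cre down to 10.8 to 14.7 TPM in mutants, and H2az2 divides the embryos by Wnt1-Cre.

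None of the 7 cofactors passed the threshold between mutants and controls, and among them *Mrtfb* came nearest. *Mrtfb* stood at 17.7, 16.0, 17.6 and 16.7 TPM in the FNPs of controls 1, 2, 7 and 8 and at 13.0, 13.7, 15.5 and 15.3 TPM in those of mutants 3 to 6. All 4 mutant FNPs lay below all 4 control FNPs. The share of all genes separated in this way was not counted, and *Mrtfb* was not called in the FNP alone (limma adjusted p = 0.222). Mandibles of the same controls had 16.1, 20.0, 18.1 and 15.2 TPM and those of mutants 13.9, 15.7, 15.3 and 15.1 TPM, and the groups overlapped. The log2 difference over both tissues was -0.24 (95% interval -0.36 to -0.12, SE 0.0574) with a limma adjusted p of 0.0509, just above the threshold of 0.05. Within the first litter the difference was -0.29 in the FNP and -0.27 in the mandible (3 mutants, 2 controls), and within the second litter -0.18 and -0.14 (1 mutant, 2 controls). Leaving out embryo 8, whose control mandible had 15.2 TPM, gave -0.27 and an adjusted p of 0.0280, and with the tissues averaged per embryo the adjusted p was 0.230. That omission was the only 1 of 17 alternatives that called *Mrtfb*, with limma adjusted p-values of 0.0280 to 0.335 over all of them.

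The other cofactors had smaller or less certain differences. Their intervals concern whole prominences and do not bound a change in the neural crest alone. They come from the fit that treats the 2 libraries of an embryo as separate, and may be too narrow. The SE of *Elk3*, for example, was 0.0377 in that fit and 0.0455 with the tissues averaged per embryo. *Mrtfa* differed by -0.05 (95% interval -0.16 to 0.05, limma adjusted p = 0.610) and *Elk4* by 0.05 (-0.12 to 0.22, adjusted p = 0.788). *Elk3* differed by 0.10 (0.02 to 0.18, adjusted p = 0.174) and *Elk1* by 0.10 (0.02 to 0.18, adjusted p = 0.207), both at an unadjusted p under 0.05, where 17.4% of all genes tested lay. *Mamstr* and *Myocd* were too low to bound closely, with intervals of -1.60 to 0.48 and -0.84 to 0.78. *Mamstr* ranged from 0.448 to 2.52 TPM in controls and from 0.206 to 2.17 TPM in mutants. *Myocd* was under the filter on low values in the mandible alone, where it stood at 0.263, 0.0892, 0.601 and 0.541 TPM in controls and at 0.213, 0.182, 0.201 and 0.168 TPM in mutants. The groups overlapped through the control of embryo 2 (two-sided exact permutation test on TPM, p = 0.286, where 0.0286 is the smallest that 4 against 4 allows). Without any other single embryo the p was 0.257 to 0.486. Without embryo 2, the control that made the groups overlap, it was 0.0286, the smallest possible for 4 against 3. Leaving out the only overlapping control fixed that value in advance, so nothing is drawn from it. This test took no account of litter. The log2 difference was 0.31 within the first litter (3 mutants, 2 controls) and -1.68 within the second (1 mutant, 2 controls), while control mandibles differed between the litters by 1.76.

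No cofactor's genotype difference was shown to depend on tissue. In the interaction of tissue and genotype limma called 0% of 14630 genes, with 638 genes but none of these 8 at an unadjusted p under 0.05. The interaction of *Srf* was -0.04 on the log2 scale (95% interval -0.63 to 0.54), that of *Mrtfb* was 0.06 (-0.18 to 0.30) and that of *Elk3* was -0.07 (-0.22 to 0.09). The largest was that of *Myocd*, -1.10 (-2.62 to 0.41), followed by that of *Mamstr*, -0.33 (-2.42 to 1.75). Both genes were low, and their wide intervals leave large interactions possible.

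Between tissues, 3 cofactors were higher in the mandible, by small amounts, in a comparison that called 29.7% of 14630 genes, so that 3 of 8 is near the background. *Elk3* stood at 55.4, 55.6, 62.5, 60.0, 61.8, 68.1, 61.5 and 58.2 TPM in the FNPs of embryos 1 to 8 and at 68.0, 67.6, 77.1, 66.3, 66.9, 74.4, 68.3 and 70.4 TPM in their mandibles. It was higher in the mandible in 8 of 8 embryos, by 1.08 to 1.23 times (log2 difference 0.22, SE 0.0365, limma adjusted p = 1.91e-04). *Elk1* stood at 11.2, 10.8, 12, 12.6, 12.2, 12, 12.3 and 12.3 TPM in FNPs and at 12.4, 12.5, 13.4, 14, 13.0, 15, 14.2 and 12.9 TPM in mandibles. It too was higher in 8 of 8 embryos, by 1.05 to 1.25 times (0.17, SE 0.0368, adjusted p = 0.00146). *Mrtfa* stood at 19.2, 20.8, 18.2, 18.9, 19.4, 17.6, 17.3 and 18.6 TPM in FNPs and at 21.8, 19.7, 20.9, 22.8, 20.8, 20.3, 20.2 and 22.8 TPM in mandibles. It was higher in 7 of 8 embryos, control embryo 2 being the exception (0.18, SE 0.0478, adjusted p = 0.00800). As levels over all libraries the tissues overlapped for each of the 3 genes.

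**Figure D3:**
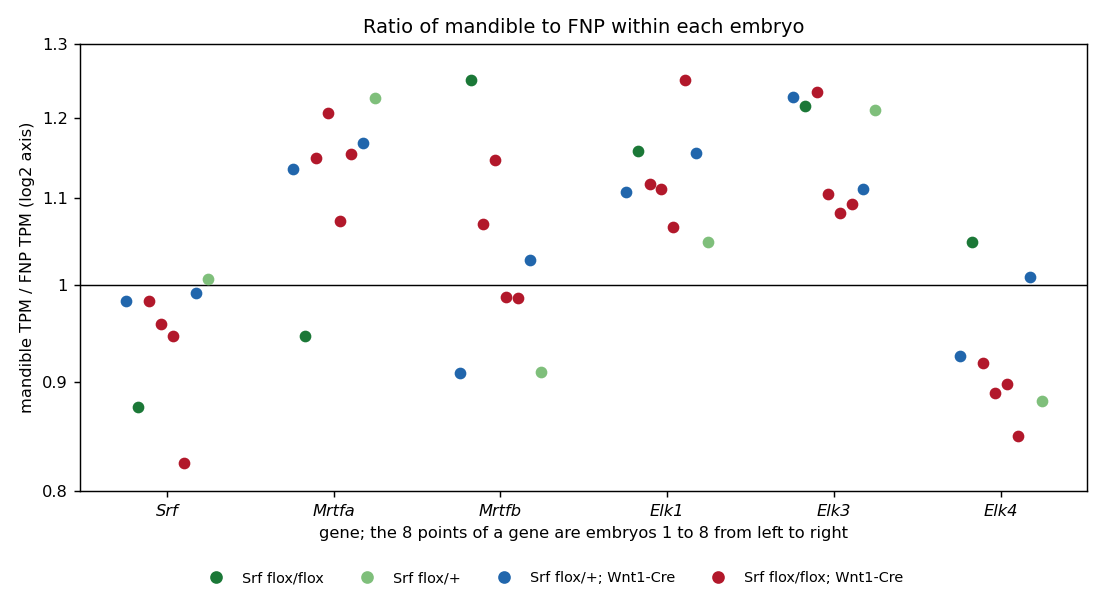
Ratio of mandible to FNP TPM within each embryo (log2 axis) for the 6 members above 10 TPM on average; points are embryos 1 to 8 from left to right, colored by genotype. All 8 ratios lie above 1 for Elk1 and Elk3 and 7 of 8 for Mrtfa, while those of Srf, Mrtfb and Elk4 lie on both sides of 1.

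The 3 genes were higher in the mandible on average in both litters and both genotype groups, which were not tested apart. The mean log2 difference of *Elk3* was 0.23 in the first litter (5 embryos), 0.19 in the second (3 embryos), 0.25 in controls and 0.18 in mutants (4 embryos each). For *Elk1* these were 0.16, 0.21, 0.16 and 0.19, and for *Mrtfa* 0.14, 0.24, 0.15 and 0.21. The SD of *Mrtfa* exceeded its mean in the first litter (0.16, 4 of 5 embryos higher) and in controls (0.18, 3 of 4 higher). *Elk4* went the other way in 6 of 8 embryos (-0.11, 95% interval -0.28 to 0.06) and *Srf* in 7 of 8 (-0.08, -0.36 to 0.21), and neither passed the threshold (adjusted p = 0.343 and 0.724). *Mrtfb* was higher in the mandible in 4 of 8 embryos (0.05, -0.07 to 0.16, adjusted p = 0.588). Whether members of a family differed from each other in this was not tested. Cell type markers also differed between the tissues. Of 7 skeletal muscle markers tested, 6 were higher in the mandible, and 6 of 6 neuronal markers were lower. Only 4 of these 7 passed the filter on low values in the FNP alone, and 5 of the 6 neuronal markers in the mandible alone. The others passed through the tissue where they were high, which partly fixed these counts. The whole list of 11 skeletal muscle markers had a summed level of 24 to 77.1 TPM in the mandible. In the FNP it was 2.59 to 7.64 TPM (*Mymk* was at 0 in every FNP library). Of 10 endothelial markers, *Pecam1* was higher and *Cldn5* lower, and their summed level was 199 to 245 TPM over FNP libraries and 209 to 247 TPM over mandible libraries. The part of cell composition in the cofactor differences was not tested.

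*Elk4* was the member that differed between litters. It stood at 13.5, 14.3, 13.6, 18.2 and 16.7 TPM in the FNPs of embryos 1 to 5 and at 19.2, 20.6 and 18.6 TPM in those of embryos 6 to 8. In the mandible it stood at 12.5, 15, 12.5, 16.2 and 15 TPM in the first litter and at 16.3, 20.8 and 16.4 TPM in the second. In each tissue all 3 libraries of the second litter lay above all 5 of the first, a separation that was not counted over all genes. The margin was narrow in the mandible. The log2 difference was 0.35 (SE 0.0846, limma adjusted p = 0.00632) in a comparison that called 26.1% of 14630 genes, so that 1 member of 8 is near the background. It was 0.48 in the FNP and 0.42 in the mandible among controls (2 embryos each), and 0.26 and 0.18 among mutants (3 against 1). *Elk1* (0.10, adjusted p = 0.0728), *Elk3* (0.08, adjusted p = 0.128) and *Srf* (-0.30, adjusted p = 0.133) did not pass. These p-values treat the 2 libraries of an embryo as separate and may be too small. With an embryo block *Elk4* had a limma adjusted p of 0.00873, and leaving out 1 embryo each gave up to 0.0476. No fit with the tissues averaged per embryo was run between litters. The methods name litter and batch as a single term, so the litters and a batch cannot be told apart.

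**Figure D4:**
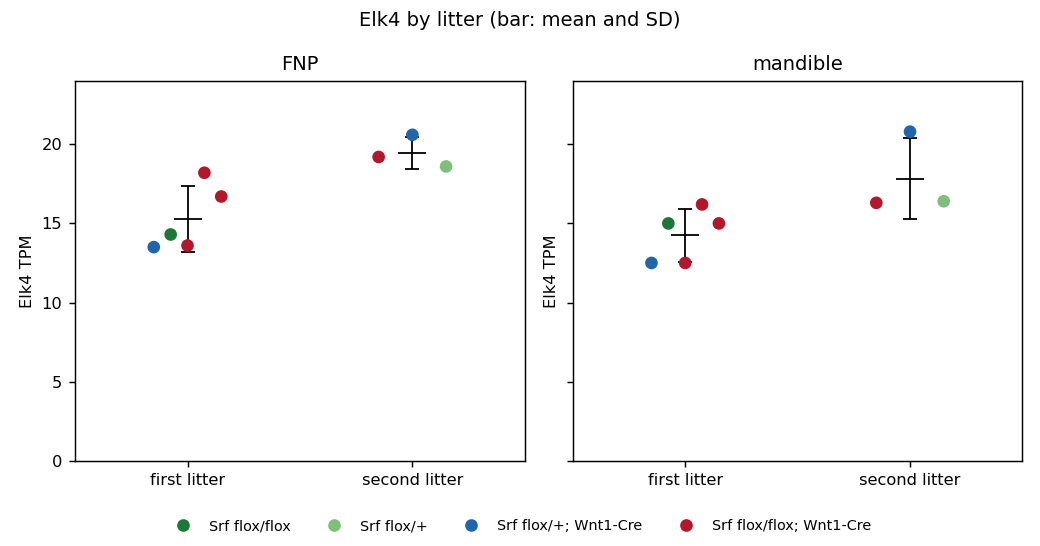
Elk4 in TPM (vertical axis, from 0) by litter in each tissue, 5 embryos in the first and 3 in the second; points are colored by genotype and bars give the mean and SD. The lowest second-litter library lies above the highest first-litter library in both tissues, with 18.6 TPM above 18.2 (FNP) and 16.3 above 16.2 (mandible).

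**Figure D5:**
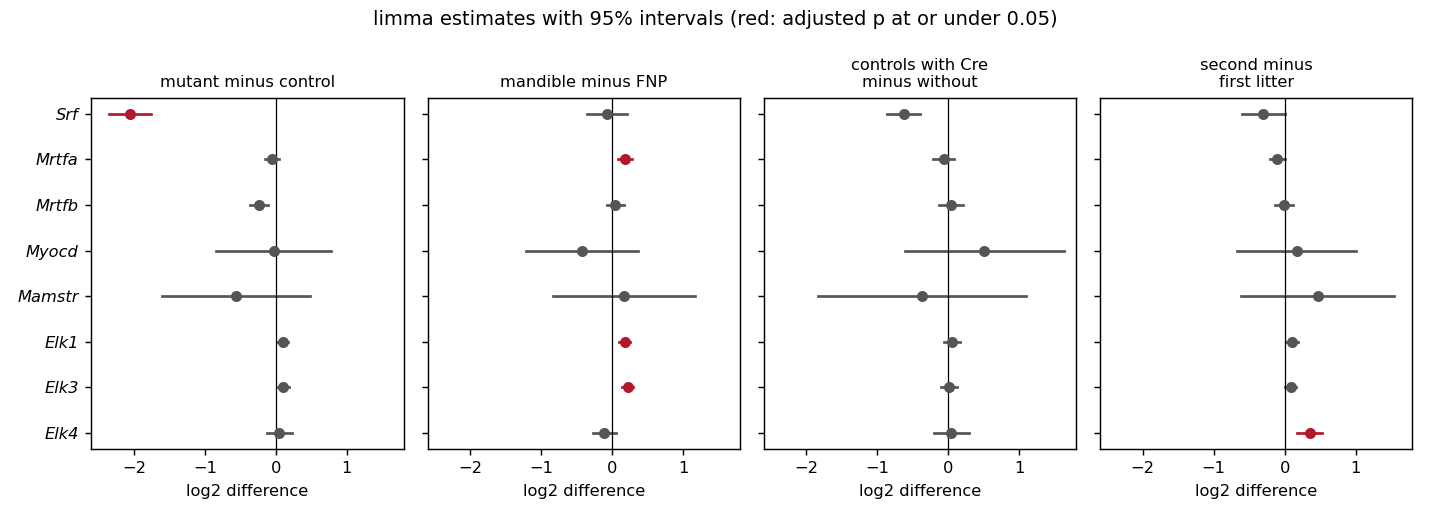
log2 differences with 95% intervals for the 8 genes in 4 comparisons (horizontal axis, the same scale in each panel); red marks an adjusted p at or under 0.05. Srf is red in the genotype panel, Mrtfa, Elk1 and Elk3 in the tissue panel and Elk4 in the litter panel, and Myocd and Mamstr have the widest intervals.

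Genes downstream and upstream of the cofactors were read from lists written from general knowledge with earlier results of these data known, so their counts are not independent evidence. Of 25 tested cytoskeletal genes attributed to MRTF-SRF, 13 were lower and 0 higher in mutants, with a median log2 difference of -0.38 against 0.00193 over all genes, of which 1.33% were called. They included the cytoplasmic actin gene *Actg1* (-1.42, limma adjusted p = 2.02e-14), the actin-binding calponin gene *Cnn2* (-2.08), the focal adhesion gene *Vcl* (-1.04) and the beta-actin gene *Actb* (-0.95). Of 10 tested immediate early genes attributed to TCF-SRF, *Arc*, which encodes a synaptic scaffold protein, was lower (-1.55, adjusted p = 0.00236) and *Junb*, an AP-1 subunit, was higher (0.57, adjusted p = 0.0296), with a median of 0.09. *Ier2* had -0.28 (adjusted p = 0.0958) and *Fos* 0.62 (adjusted p = 0.308). The 2 libraries of an embryo are treated as separate in these calls. With an embryo block 12 of the 25 cytoskeletal genes were lower, and with the tissues averaged per embryo 11 were, and *Actg1* had adjusted p-values of 5.74e-14 and 1.59e-07 in those limma fits. *Arc* was called with the block (0.00487) but not with the average (0.0814), and *Junb* was called in neither (0.0553 and 0.137). The lists were not tested against each other. No gene was called among 15 genes of the ERK cascade or 9 other SRF partners, in which 3 and 1 genes had an unadjusted p under 0.05 in limma. *Map2k2* (MEK2) had the smallest adjusted p of the ERK list (-0.09, adjusted p = 0.168). Of 8 neural crest mesenchyme markers 0 were called (3 at an unadjusted p under 0.05), and their sum ranged from 1326 to 2044 TPM in controls and from 1455 to 1769 TPM in mutants. Of 6 macrophage markers, the complement gene *C1qa* was higher in mutants (0.75, limma adjusted p = 0.0442) and the others were not called. With an embryo block *C1qa* missed the threshold (adjusted p = 0.0746), as it did with the average (0.237). The summed macrophage level was 14.2 to 20.1 TPM in control and 20.4 to 24.3 TPM in mutant FNPs, without overlap. In mandibles it was 11.8 to 14.7 and 14.4 to 17.8 TPM, and the groups overlapped. How often genes or sums separate as in the FNP was not counted. Of 6 erythroid markers 0 were called, with 5 at an unadjusted p under 0.05 in the FNP alone, where their sum was 11296 to 13876 TPM in controls and 12441 to 22797 TPM in mutants. The part of these cells in the genotype differences was not tested.

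Between tissues, the same upstream lists held calls in both directions. Of 15 ERK cascade genes, *Map2k2* (0.11) and *Hras* (0.17) were among those higher in the mandible, and the feedback inhibitors *Spry4* (-1.10, limma adjusted p = 2.82e-09), *Spry2* (-0.84) and *Dusp6* (-0.72), and *Nras* (-0.29), were lower. The median of the list was -0.06, against -0.00479 over all genes. Among 9 other SRF partners, *Nkx2-5* (6.73) and *Prrx1* (1.42) were higher and *Prrx2* (-0.70) lower in the mandible. *Nkx2-5* did not pass the filter on low values in the FNP alone, and passed here through the mandible, where it was high. The direction of its difference was thus partly fixed by the filter. The size of that difference depends on the constant added before taking logs.

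The genes most like each member were found by Pearson's r of log2 values centered within tissue over the 16 libraries, which share embryos, litters and depth. For *Srf* these were *Flna* (0.98), *Actb* (0.98) and *Cnn2* (0.97), all lower in mutants, so that r describes mostly the distance between the genotype groups. Over the 8 control libraries the leading genes were different, namely *1700010I14Rik* (0.99), *Armcx3* (0.99) and *Nudcd3* (0.99), none of which was called between genotypes. *Mrtfa* was most like *Ctsa* (0.91), *Mrtfb* most like *2610042L04Rik* (0.91), *Elk1* most like *Tbc1d24* (0.90) and *Elk3* most like *Adora2b* (0.87). *Elk4* was most like *Tmem72* (0.92), *Per3* (0.91) and the fibronectin gene *Fn1* (0.91). With the largest r drawn from 14630 genes, these values are descriptions and carry no test.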

How the data were processed

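Total RNA of each prominence was extracted with RNeasy columns and sequenced from both ends. The authors quantified it with Salmon 1.5.0 on mm10 and passed it to sleuth 0.30.0-4 in gene mode. Both deposited tables used here hold a signal: gene values, the estimated counts after division by each library's size factor, and TPM that carry a library factor. Gene values totaled 10.2 to 11.2 m per library and are not whole reads, so no count model was fitted, and read depth per gene is unknown. The authors' deposited comparison tables (fold changes, p-values and q-values) were not used.

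Values were tested with limma 3.58.1 (R 4.3.3) with a variance trend, after adding 0.5 and taking log2, keeping genes that reached 10 in 4 or more libraries, with Benjamini-Hochberg adjustment over all genes and a threshold of 0.05. Fold changes on this scale understate those of low genes. Covariates were litter, and tissue or genotype where both were fitted. All 8 members passed the filter in the 16-library fits and 7 in the mandible alone, *Mamstr* with 12 and *Myocd* with 6 libraries at or above 10. Libraries of the same embryo come from the same animal. Their deviations from the mean of their tissue and genotype group, not adjusted for litter, correlated with r of 0.0993 to 0.234. The largest r of an FNP with the mandible of another embryo was 0.0802 to 0.213, and it exceeded the r within the embryo for embryos 2, 4 and 6. The main fit treats the libraries of an embryo as separate, so its p-values may be too small, and fits with an embryo block were run as alternatives. Members and lists were chosen with earlier results of these data known. Genes named are the members, up to 4 per list with the smallest adjusted p in the genotype and tissue comparisons, further called genes of the ERK list, and the 3 most like a member by r. *H2az2* and the marker genes named were singled out after their values were seen. A few genes and 1 list are not reported here. The main fit of each comparison, but none of the alternatives, was run on simulated data. The simulated libraries were independent, so that run cannot show the effect of libraries that share an embryo. Promoter windows were read from RefSeq and coordinates from GENCODE for GRCm38. Plots were made with Python 3.11.15 (matplotlib 3.10.9).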

Additional observations from a re-analysis of the deposited data

How the results depend on the processing

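The call of *Srf* between genotypes held under all 17 alternatives of the joint fit and all 15 in each tissue alone, and *Elk3*, *Elk1* and *Mrtfa* between tissues and *Elk4* between litters were called under all of theirs (15 and 13). The 13 between litters held no fit with the tissues averaged per embryo. Tissues were paired within embryos, whereas genotypes were not, so for genotype the replicate block is a correlation between the libraries of an embryo. With it *Srf* had -2.06 between genotypes and *Mrtfb* an adjusted p of 0.0861 (limma), *Elk3* had 0.216 between tissues, and no call of a member changed. Over all genes the block moved the genotype calls from 195 to 113, the average of the tissues per embryo to 20, and the fit without litter to 28. Leaving out 1 embryo gave 41 (without embryo 2) to 367 genes (without embryo 6), with 43 without embryo 1 and 67 without embryo 4. Scaling libraries to equal totals moved the division of higher and lower genes from 43 and 152 to 107 and 96 between genotypes, and from 1593 and 2231 to 2610 and 1296 between litters.

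Leaving out 1 embryo each, 1 to 2 members were called between genotypes (*Mrtfb* with -0.271 without embryo 8) and 1 to 2 between litters (*Elk3* with 0.10 without embryo 3). With equal totals 3 were called between litters, *Elk1* (0.162) and *Elk3* (0.146) besides *Elk4*. The *Myocd* difference in the mandible was -0.277 to -0.107 TPM. The following uncalled differences changed sign, and the cause was not tested. Under equal totals these were *Myocd* (0.00141) between genotypes, *Mrtfa* (0.0172) and *Elk4* (0.00904) in the mandible and *Mrtfb* (0.0507) between litters. From TPM they were *Mrtfa* (0.00415) in the mandible and *Mrtfb* (0.00634) between litters. Without litter they were *Elk4* (-0.0377) between genotypes and *Mrtfa* (0.00153) in the mandible. Against controls without Cre they were *Myocd* (0.255) between genotypes and *Mrtfb* (-0.0097) in the interaction. Leaving out 1 embryo each gave ranges that crossed 0. Between genotypes these were -0.434 to 0.240 for *Myocd* and -0.0191 to 0.134 for *Elk4*, in the FNP -0.902 to 0.0305 for *Mamstr*, and in the mandible -0.0601 to 0.0370 for *Mrtfa* and -0.111 to 0.0700 for *Elk4*. Between tissues *Mamstr* had -0.101 to 0.401. In the interaction *Mamstr* had -0.835 to 0.235, *Mrtfa* -0.0227 to 0.114, *Srf* -0.0933 to 0.0158 and *Elk1* -0.0208 to 0.0565. Among controls *Myocd* had -0.196 to 1.21, *Mrtfb* -0.0867 to 0.168, *Mamstr* -1.29 to 0.551, *Elk4* -0.171 to 0.257 and *Elk3* -0.0126 to 0.0343. Between litters *Mrtfb* had -0.0655 to 0.0403, *Myocd* -0.188 to 0.496 and *Mamstr* -0.277 to 0.864.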
